A study of Danio rerio with 8 samples.

Results

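Early response genes that are not subunits of the transcription factor AP-1 were measured in whole retinas of albino zebrafish (Danio rerio) with and without a light lesion. The set was defined by 10 gene symbols (egr1, egr2b, ier2a, ier2b, ier5, nr4a1, btg1, btg2, ccn1 and ccn2a), and all probe sets carrying one of these symbols in the array annotation were taken. This gave 13 probe sets for 9 genes out of 15502 probe sets and 8793 genes with a single symbol. No probe set carried the symbol ier2b. A probe set annotated wu:fj62d01, which RefSeq lists as an older name of ier2b, is described separately and is not counted with the 9 genes.

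The samples were 4 control arrays from unlesioned fish and 4 light lesion arrays from fish kept for 72 h under bright constant light, 1 Affymetrix array per sample. All fish were albino and had been adapted to darkness beforehand, and the controls then went back to normal lighting. Neither the age of the fish, the number pooled per array nor the hour of sampling is given in the labels, so p-values here reflect the variation among these arrays, part of which may be technical. The light itself and the lesion it causes cannot be told apart in this design. The purpose stated for the series was to find genes needed to regenerate photoreceptors.

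Immediate early genes are transcribed within minutes of a stimulus, without new protein synthesis, through factors already present in the cell such as SRF with its ETS partners and CREB. Their transcripts are short-lived, and in the retina they respond to light, neuronal activity, growth factors and injury. The genes studied here encode DNA-binding transcription factors (egr1, egr2b, nr4a1), small nuclear regulators (ier2a, ier5), antiproliferative adaptors of mRNA deadenylation (btg1, btg2) and secreted matrix-associated proteins (ccn1, ccn2a).

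Levels are RMA values in log2 units, so that a difference of 1 is a doubling, and means are given ± SD with n = 4 arrays per group. Array medians lay between 7.63 and 7.69. The 17 tag control probe sets of the array, which served as a guide to background, had means from 6.41 to 7.88 with a median of 6.83. The top of this range lay above every array median, so most probe sets on each array lay below that top. Light lesion replicate 1 stood somewhat apart. Its correlations with the other light lesion arrays over all probe sets were 0.991 to 0.993, against 0.995 to 0.996 between light lesion replicates 2, 3 and 4 and 0.992 to 0.998 between controls, and its hybridization control probe sets averaged 10.1 against 9.31 to 9.74 on the other 7 arrays. The changes of the genes studied here are therefore also given without this array, and those of the related lists are given with all arrays, with the counts that moved without it stated after the lists. RNA quality and labelling were read from the GAPDH control probe sets, whose 3′ minus 5′ difference was 0.0450 ± 0.0219 in controls but 0.213 ± 0.0562 after the lesion (p = 0.0286 by a two-sided exact permutation test, the lowest p that 4 against 4 arrays can reach). The same difference for the actin control probe sets overlapped between groups, at -1.52 to -1.27 in controls and -1.67 to -1.39 after the lesion. The part of these differences in the changes below was not tested. Photoreceptor markers were high, as a retinal sample requires: the cone transducin gene gnat2 stood at 14.18 ± 0.015 in controls and the rod transducin subunit gene gnb1b at 13.14 ± 0.014.

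The early genes moved in opposite directions after the light lesion. The orphan nuclear receptor gene nr4a1 fell most, to 0.472 times its control level, and btg1 and ccn2a fell, while ier2a rose 1.82-fold. The brightest of 3 ccn1 probe sets rose 1.16-fold, but the mean of the 3 changed by 0.033 in log2 units and did not pass. The calls of ccn1 and ccn2a were lost under some alternatives given below. The main probe sets of egr1 and egr2b, ier5 and btg2 did not pass the test. A second, on average dimmer, egr1 probe set was called higher (log2 fold change 0.30, limma adjusted p = 0.0139). Read from the brightest probe set of each gene, 2 of 9 genes rose, 3 fell and 4 did not pass (limma, adjusted p under 0.05 over all probe sets). Over all 8793 genes 44.5% were called, 24.4% higher and 20.1% lower, so the 5 calls among 9 genes are near the background of the array. The groups did not overlap for 4 of the 9 genes, against 43.5% of all genes. The median log2 fold change of the 9 genes was -0.07, and that of all genes was -0.03. Counted as probe sets, 3 of 13 rose and 3 fell, where 40.2% of all probe sets were called, 19.5% higher and 20.7% lower. At a threshold of 0.01, 3 of the 9 genes were called against 32.7% of all genes, and 3 of the 13 probe sets against 28.4% of all probe sets. In whole-retina RNA, fewer cells of a type and less RNA per cell cannot be told apart.

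**Figure D1:**
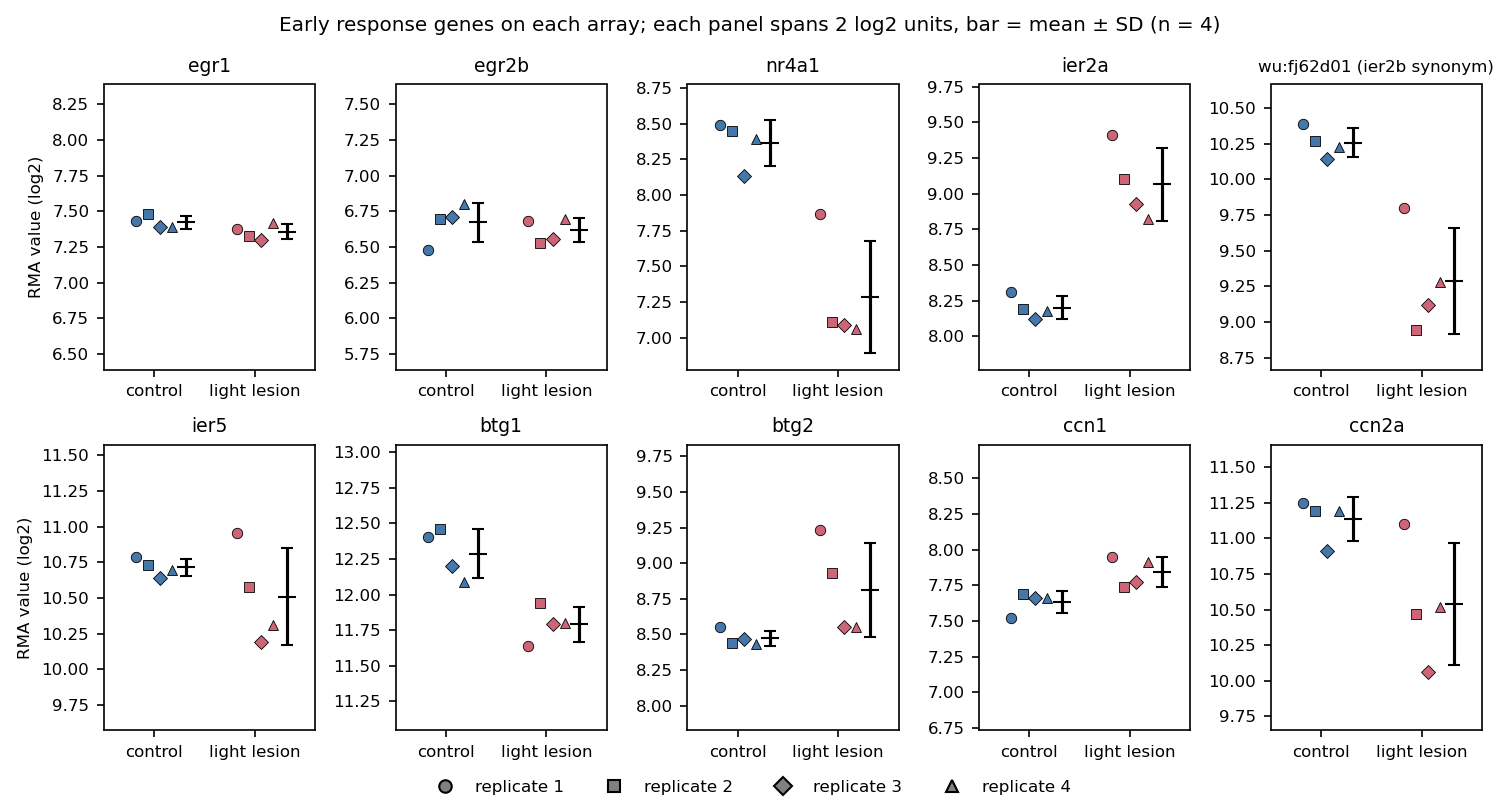
RMA values (log2, vertical axis) of each early response gene on the 4 control (blue) and 4 light lesion (red) arrays, with symbols for the replicate number and bars for mean ± SD. The arrays of nr4a1, ier2a, btg1 and ccn1 separate by group, and light lesion replicate 1 (red circle) is the highest light lesion array for 6 of the 9 genes, the exceptions being egr1, egr2b and btg1. The panel of wu:fj62d01 is not counted.

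Among the transcription factors, nr4a1 (also called NUR77, an orphan nuclear receptor induced by activity and growth factors) had values of 8.49, 8.45, 8.13 and 8.39 in control replicates 1 to 4. On light lesion arrays 1 to 4 it stood at 7.87, 7.11, 7.09 and 7.06. No light lesion array reached the lowest control, and light lesion replicate 1 lay between the controls and the other 3 arrays. The mean went from 8.37 ± 0.16 to 7.28 ± 0.39, a log2 fold change of -1.08 (SE 0.18, 95% interval -1.48 to -0.69, limma adjusted p = 8.97e-04). Without light lesion replicate 1 the change was -1.28 (adjusted p = 6.56e-06). All 4 light lesion values lie within the range of the tag controls, where the array compresses differences, so the size of the fall is uncertain. Of the 9 genes nr4a1 alone was called with a change of at least 2-fold, which 5.42% of all genes were.

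The zinc finger gene egr1, a classical activity-regulated factor, was read by 2 probe sets that did not move together. The brighter one had values of 7.43, 7.48, 7.39 and 7.39 in controls and 7.38, 7.33, 7.30 and 7.42 after the lesion. These groups overlapped, and the log2 fold change was -0.07 (95% interval -0.17 to 0.041, adjusted p = 0.309). The other probe set gave 7.18, 7.10, 6.95 and 7.16 in controls and 7.35, 7.26, 7.59 and 7.38 after the lesion. Here every light lesion array lay above every control, by a gap of 0.080 at the narrowest, and the log2 fold change was 0.30 (SE 0.079, 95% interval 0.12 to 0.48, adjusted p = 0.0139). All 16 values lay within the range of the tag controls. Without light lesion replicate 1 the changes were -0.07 (adjusted p = 0.321) and 0.31 (adjusted p = 0.0197). The first probe set was the brighter in controls (means 7.42 against 7.10) but not after the lesion (7.36 against 7.40). A direction for egr1 therefore depends on the probe set read.

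The related zinc finger gene egr2b (krox20, best known from hindbrain patterning and myelinating glia) stood at 6.48, 6.70, 6.71 and 6.80 in controls and 6.68, 6.53, 6.56 and 6.70 after the lesion, close to the median of the tag controls. The groups overlapped fully, with a log2 fold change of -0.06 (95% interval -0.22 to 0.11, adjusted p = 0.576), and of -0.08 without light lesion replicate 1 (adjusted p = 0.485). Both egr1, above the tag control median of 6.83, and egr2b lay within the tag control range on every array, and nr4a1 did so after the lesion. For this reason nothing is read from the differences between the changes of these genes.

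Of the other measured genes of these families, egr4 rose by 0.39 (adjusted p = 0.00395), the EGR corepressor gene nab1a was lower by a small amount (log2 fold change -0.18, adjusted p = 0.0400, groups overlapping), and egr2a did not pass. The means of egr4 (7.41 and 7.80) lay within the range of the tag controls, and those of nab1a (6.51 and 6.33) at its lower end or below it. The list of 5 measured EGR and NAB genes thus held 1 rise and 1 fall, and its median change was -0.07 in log2 units. The second measured NR4A gene, nr4a2b, went from 7.06 ± 0.096 to 6.90 ± 0.21 and did not pass (adjusted p = 0.242), also within that range.

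**Figure D2:**
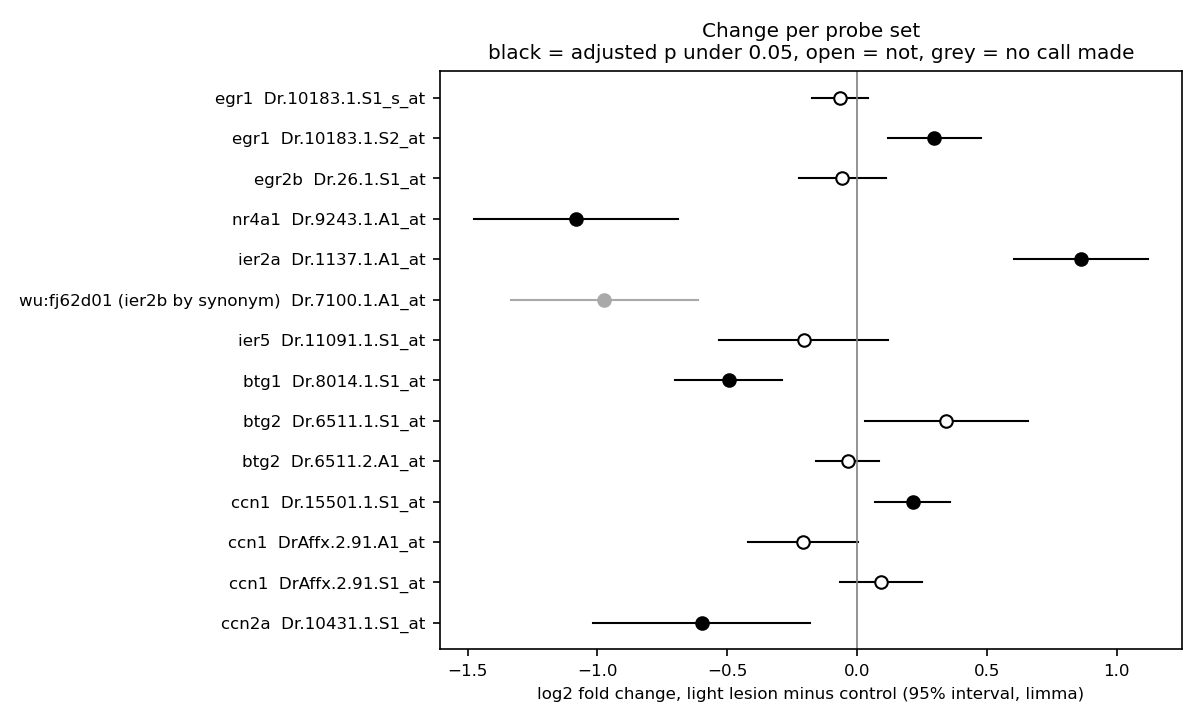
Log2 fold change of each probe set, light lesion minus control (horizontal axis), with the 95% interval from limma as a line and black points for adjusted p under 0.05. The probe set wu:fj62d01 is drawn in grey with no call. The falls of nr4a1, ccn2a and btg1 and the rise of ier2a lie farthest from 0 among the 9 genes, and the probe sets of egr1 and ccn1 spread over both sides of 0.

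The nuclear regulator gene ier2a, an intronless early gene induced by growth factors, had the largest rise of the 9 genes. It stood at 8.31, 8.19, 8.12 and 8.18 in control replicates and at 9.41, 9.10, 8.93 and 8.82 in light lesion replicates 1 to 4. The groups were separated by a gap of 0.50, more than the whole range of the controls. The mean rose from 8.20 ± 0.080 to 9.06 ± 0.26, a log2 fold change of 0.86 (SE 0.11, 95% interval 0.60 to 1.12, adjusted p = 2.64e-04). Without light lesion replicate 1, its highest array, the rise was 0.75 (adjusted p = 7.22e-05).

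The probe set annotated wu:fj62d01 had lower values after the lesion. RefSeq gives this provisional name as a synonym of ier2b, the paralog of ier2a, and of no other gene, but the gene identifiers of the array annotation and of RefSeq differ, so the match rests on the name. It was noticed after values were seen, among the genes whose profile was closest to that of nr4a1, so its values are a description with no test. Its values were 10.39, 10.27, 10.14 and 10.23 in controls and 9.80, 8.94, 9.12 and 9.28 after the lesion. No array of one group reached the other. The log2 fold change was -0.97 (SE 0.16), a level of 50.9% of control, beside 0.86 for ier2a, and it was -1.15 without light lesion replicate 1.

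The third regulator, ier5, which has been tied to heat shock factor signalling in mammalian cells, had nearly even controls of 10.79, 10.73, 10.64 and 10.70. Its light lesion arrays spread from 10.96 in replicate 1 through 10.58 in replicate 2 to 10.19 and 10.31 in replicates 3 and 4. Replicate 1 thus lay above all controls and the other 3 below them. The log2 fold change of -0.21 (95% interval -0.53 to 0.12) did not pass (adjusted p = 0.297). Without replicate 1 it was -0.36 and passed (adjusted p = 0.0120), so that 1 array decides this call. Among the 4 measured genes named for the immediate early response, ier3ip1, an endoplasmic reticulum protein gene that shares only the name, rose by 0.30 (adjusted p = 0.00803), and ier5l did not pass, which with ier2a made 2 rises and no fall. This count leaves out wu:fj62d01, and without light lesion replicate 1 it became 2 rises and 1 fall (ier5).

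The proteins of the antiproliferative genes btg1 and btg2 bind the CCR4-NOT deadenylase and slow cell division, and btg2 is also a p53 target that marks neurogenic divisions in the mouse. For btg1 the controls stood at 12.40, 12.46, 12.20 and 12.09 and the light lesion arrays at 11.64, 11.94, 11.79 and 11.80. All lesion arrays lay below all controls, and replicate 1 was here the lowest. The mean fell from 12.29 ± 0.17 to 11.79 ± 0.12, a log2 fold change of -0.49 (SE 0.092, adjusted p = 0.00205), and the change was -0.44 without light lesion replicate 1 (adjusted p = 0.00450).

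The brighter btg2 probe set had controls at 8.55, 8.44, 8.47 and 8.43. After the lesion it stood at 9.23 and 8.93 in replicates 1 and 2 and at 8.55 in both replicates 3 and 4. The last 2 arrays were thus level with the highest control. The difference of 0.34 (SE 0.14, 95% interval 0.029 to 0.66) did not pass (adjusted p = 0.0791). It was 0.21 without light lesion replicate 1 (adjusted p = 0.123), and it passed without replicate 3 or without replicate 4, at 0.43 in each case (adjusted p = 0.0366 and 0.0371). The mean of both btg2 probe sets changed by 0.15 (adjusted p = 0.174). The second btg2 probe set was dim, from 6.22 to 6.43 over the 8 arrays, with a log2 fold change of -0.04 (adjusted p = 0.616). The change of btg1 minus that of btg2 was -0.84 in log2 units (p = 0.0286, two-sided exact permutation test on the per-array difference, adjusted p = 0.0381 over 4 pairs of genes), and this difference was -0.65 without light lesion replicate 1 (exact permutation p = 0.0286).

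Of the 16 measured genes of the BTG and TOB family and the deadenylase, 7 fell, 3 rose and 6 did not pass. Over all genes 20.1% were called lower and 24.4% higher. The list's median change was -0.15 in log2 units. The TOB genes, whose proteins share the BTG domain, fell most: tob1a went from 10.87 ± 0.20 to 9.77 ± 0.21 (log2 fold change -1.1, adjusted p = 9.49e-05), and tob1b from 11.91 ± 0.14 to 10.90 ± 0.34 (log2 fold change -1.01, adjusted p = 5.79e-04). A second probe set of tob1b fell by 0.42 (adjusted p = 0.0182). The third family member btg3 rose by 0.83 (adjusted p = 1.46e-04). Of the deadenylase subunit genes, cnot3a fell by 0.34 with overlapping groups (adjusted p = 0.0230) and its second probe set by 0.50 (adjusted p = 0.00114). With no overlap of the groups, cnot10 (log2 fold change -0.25, adjusted p = 0.00346), cnot8 (-0.22, adjusted p = 0.00394) and cnot7 (-0.19, adjusted p = 0.0146) also fell. The means of cnot7 (6.43 and 6.24) lay at the lower end of the tag control range or below it. In the other direction, cnot11 rose by 0.58 with no overlap (adjusted p = 3.41e-04) and cnot9 by 0.21 with overlapping groups (adjusted p = 0.0196).

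The secreted CCN proteins bind integrins and matrix, and their genes respond to SRF and to YAP with TEAD. The ccn1 gene (cyr61) was read by 3 probe sets. The brightest had values of 7.52, 7.69, 7.66 and 7.66 in controls and 7.95, 7.74, 7.77 and 7.91 after the lesion, with no overlap but a gap of only 0.056. Its log2 fold change was 0.21 (SE 0.063, adjusted p = 0.0233), and it no longer passed without light lesion replicate 1 (0.18, adjusted p = 0.0535), without light lesion replicate 4 or without control replicate 1. The other probe sets did not pass, at -0.21 (adjusted p = 0.111) and 0.09 (adjusted p = 0.333). The first of them was called lower without control replicate 1 (-0.28, adjusted p = 0.0360) and ranged from -0.28 to -0.11 as single arrays were left out. In addition, the mean of the 3 probe sets changed by 0.033 (adjusted p = 0.726). Apart from 2 values of the brightest probe set after the lesion, ccn1 lay within the range of the tag controls, and the calls above differed between its probe sets.

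For ccn2a (ctgf), the controls stood at 11.25, 11.19, 10.91 and 11.19. The light lesion arrays stood at 11.10 in replicate 1 and at 10.47, 10.06 and 10.52 in replicates 2 to 4. Replicate 1 lay inside the control range, and the other 3 arrays lay below every control. The mean went from 11.14 ± 0.15 to 10.54 ± 0.43, a log2 fold change of -0.60 (SE 0.18, 95% interval -1.02 to -0.18, adjusted p = 0.0276). Without light lesion replicate 1 the fall was -0.79 (adjusted p = 8.63e-04), while leaving out any of control replicates 1, 2 and 4 or light lesion replicates 2, 3 and 4 ended the call, with adjusted p from 0.0532 to 0.0678. The change of ccn1 exceeded that of ccn2a by 0.81 in log2 units (p = 0.0286, two-sided exact permutation test, adjusted p = 0.0381 over 4 pairs), and by 0.96 without light lesion replicate 1 (exact permutation p = 0.0286). Without any one of control replicates 1 to 4 it did not pass (0.74 to 0.90, exact permutation p = 0.0571 each). The groups still did not overlap in this difference, and the two-sided test also counted an assignment of opposite sign. With the mean of the 3 ccn1 probe sets it did not pass either (0.63, exact permutation p = 0.0571). Most ccn1 values lay within the tag control range, so the size of this difference is uncertain. The 4 pairs of the adjustment include egr1 with egr2b and egr1 with nr4a1, from which nothing is read.

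Of the remaining measured CCN genes, ccn4b (log2 fold change -0.18, adjusted p = 0.0556) and ccn2b (-0.06, adjusted p = 0.379) did not pass, leaving 1 rise and 1 fall among 4 genes. The means of ccn4b (6.50 and 6.32) lay at the lower end of the tag control range or below it. Those of ccn2b (6.34 and 6.28) lay below it. In the Hippo pathway, whose kinases restrain YAP, the kinase adaptor genes mob1a and sav1 rose by 0.80 (adjusted p = 6.26e-04) and 0.29 (adjusted p = 0.0228), sav1 at means of 6.94 and 7.23 within the tag control range, and the kinase gene stk3 fell by 0.46 (adjusted p = 0.0195). The other 3 of 6 measured genes did not pass, with a list median of 0.15.

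Light lesion replicate 1 was the highest light lesion array for 6 of the 9 genes (nr4a1, ier2a, ier5, btg2, ccn1 and ccn2a), while it was the highest for 32.6% of all genes. For nr4a1 and ccn2a this placed it nearer the controls than the other light lesion arrays were, and for ier2a and btg2 farther from them. It exceeded the next light lesion array by 0.77 for nr4a1, 0.58 for ccn2a, 0.38 for ier5, 0.31 for ier2a and 0.30 for btg2. Replicate 1 was the highest light lesion array for 36.9% of all genes called lower and 20.9% of all called higher. It was the lowest for 24.8% of those called lower and 38.2% of those called higher. Its mean level was also the highest for the AP-1 list described below (10.369 against 9.676 to 10.215). The same held for the other early genes (9.30 against 9.19 to 9.23) and the upstream factors (8.33 against 8.25 to 8.29). For the Hippo genes it was the lowest (8.70 against 8.81 to 8.93). Of the cell type markers below, it was the highest for the inner neurons (10.70 against 10.52 to 10.63). It was the lowest for the rods (11.00 against 11.21 to 11.38) and the cones (13.41 against 13.45 to 13.55). A highest replicate 1 is thus not particular to the 9 genes. The spread between light lesion arrays was wider than between controls, with an SD ratio of 6.08 for btg2, 5.42 for ier5, 3.21 for ier2a, 2.82 for ccn2a and 2.40 for nr4a1. The ratio was under 1 for egr2b (0.621) and btg1 (0.716). Its median was 2.40 over the 9 genes and 1.1 over all genes. A wider light lesion spread is not particular to the 9 genes. For atf3 the SD was 0.085 in controls and 0.67 after the lesion, and for fosab 0.11 and 0.45. It went the other way for jun (0.19 and 0.12) and dusp2 (0.23 and 0.089). Light lesion replicate 1 also had the highest GAPDH 3′ minus 5′ difference, 0.285 against 0.158 to 0.228 on the other light lesion arrays. Its highest hybridization controls are given above. The part of either in these values was not tested.

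**Figure D3:**
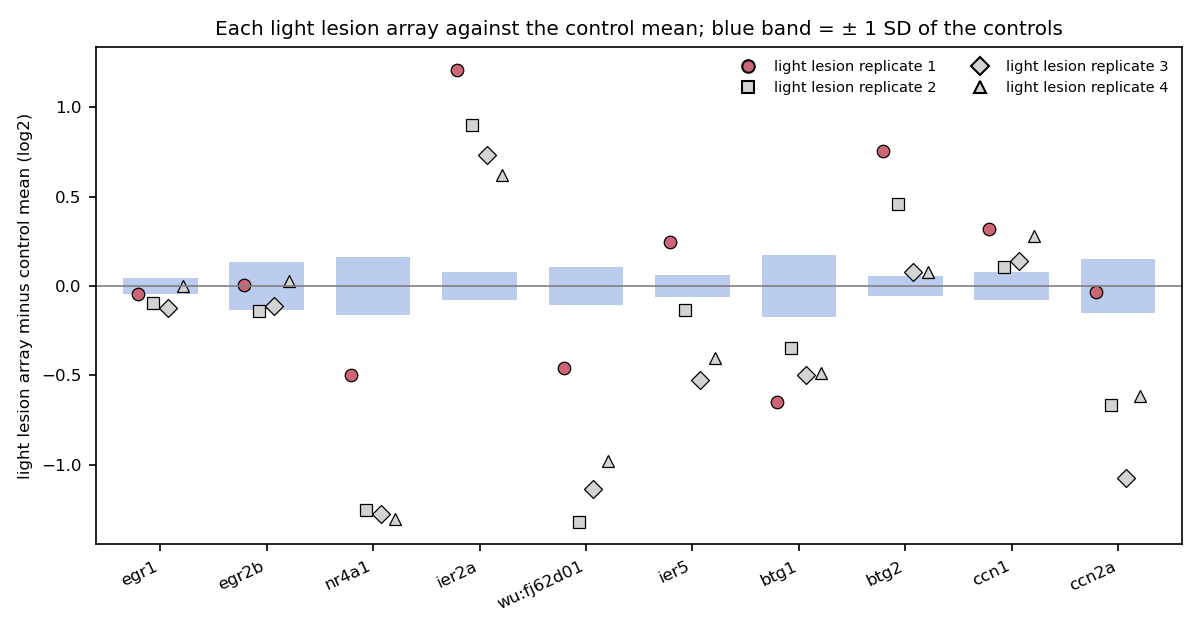
Each light lesion array's log2 value minus the control mean (vertical axis) for the 9 genes and wu:fj62d01, with replicate 1 in red, the other replicates in grey and a blue band for ± 1 SD of the controls. Replicate 1 stands above the other light lesion arrays for nr4a1, ier2a, ier5, btg2, ccn1 and ccn2a and below them for btg1.

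The genes with the profile closest to that of nr4a1, the gene with the largest change, were found from the root mean square difference over the 8 arrays after subtracting each gene's control mean. They were wu:fj62d01 (root mean square difference 0.138), the splicing factor gene tra2b (0.143), the polo-like kinase gene plk3 (0.147), the circadian clock factor gene bmal1a (0.150) and the heat shock cochaperone gene dnajb1b (0.155). Their log2 fold changes ran from -1.15 for dnajb1b to -0.95 for plk3. The compared profile includes the change after the lesion, so changes near that of nr4a1 follow from how these genes were picked.

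Factors and kinases upstream of early genes were mixed. Among 13 with a probe set, 5 fell and 3 rose, while 5 missed the threshold, and the median change was -0.15 in log2 units. Of the called genes, elk4 (lower, means 7.27 and 7.12) and cremb (higher, 6.88 and 7.21) lay within the tag control range. The means of crema (lower, 5.89 and 5.69) lay below it. Of the ERK pathway genes, rps6ka3a (-0.47, adjusted p = 0.00427), map2k1 (-0.46, adjusted p = 0.00294) and mapk3 (-0.42, adjusted p = 0.00240) fell, with 2 other probe sets of mapk3 at -0.64 and -0.90. In the same pathway map2k2a (0.04, adjusted p = 0.706) and rps6ka1 (-0.09, adjusted p = 0.257) did not pass. The p38 kinase gene mapk14a rose by 0.43 (adjusted p = 0.00407).

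Other early genes outside AP-1 rose more often than they fell. Among 24 with a probe set, 11 rose and 1 fell, while 12 missed the threshold, with a median of 0.20. Of the 11 called higher, phlda2 (means 6.86 and 7.12) and gadd45ab (6.90 and 7.13) lay within the tag control range with overlapping groups. The means of csrnp1a (6.08 and 6.28), also called higher, lay below that range. Over all genes 44.5% were called, 24.4% higher and 20.1% lower, which is the background for the counts of every list. The growth arrest gene gadd45ga rose by 1.93 (adjusted p = 3.80e-06), the MAP kinase phosphatase gene dusp2 by 1.68 (adjusted p = 2.52e-06) and the mRNA decay factor gene zfp36l1a by 1.06 (adjusted p = 2.02e-04). The one that fell was bhlhe40 (-0.42, adjusted p = 0.00728), a light-responsive clock repressor. For AP-1 and its relatives, 6 of 7 measured genes rose and none fell, with a median of 1.65. They included atf3 (2.92), jun (2.34, a second probe set 2.50) and fosab (1.83, other probe sets 0.64 to 1.23), and the differences between these lists and the 9 genes were not tested.

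**Figure D4:**
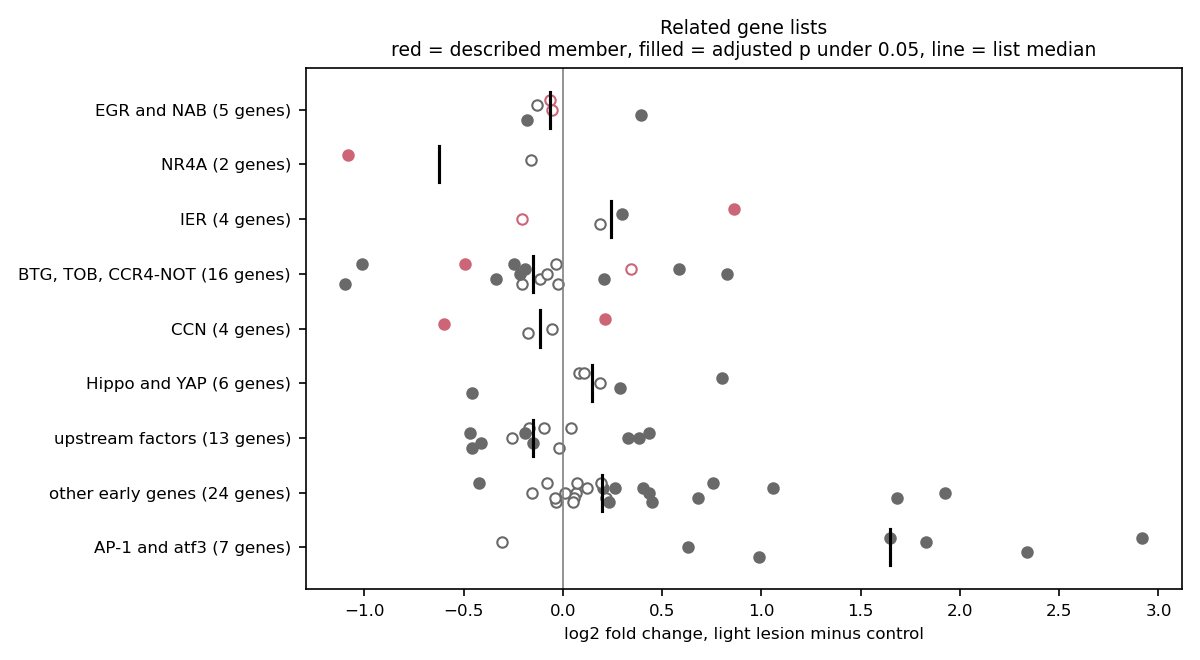
Log2 fold change, light lesion minus control (horizontal axis), of each measured gene in 9 related lists, with the genes described above in red, filled points for adjusted p under 0.05 and a line at each list's median. The list medians run from -0.62 for the 2 NR4A genes to 1.65 for AP-1 and atf3.

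Most lists of cell type markers shifted between the same groups. Below, each list's mean level is given as its range over the 4 control arrays and then over the 4 light lesion arrays. All 7 rod markers fell (median -1.82), led by pde6a (-3.24), guca1b (-2.76) and gnb1b (-2.22), with mean levels of 13.09 to 13.22 and 11.00 to 11.38. Of 10 cone markers 7 fell, led by opn1mw2, guca1c and gnat2, and 1 rose, gngt2a (median -0.55), with mean levels of 13.88 to 13.95 and 13.41 to 13.55. Of 15 inner retinal neuron markers 13 fell, led by inab, prox1a and barhl2, and 1 was called higher, ptf1a (median -0.60), with mean levels of 11.18 to 11.22 and 10.52 to 10.70. The groups overlapped for ptf1a, and its means (6.76 and 6.97) lay within the range of the tag controls. Of 16 microglia and leukocyte markers 15 rose, led by lgals9l1, grna.1 and laptm5 (median 0.71), with mean levels of 8.10 to 8.21 and 8.96 to 9.27. Of those called, csf1ra (means 7.03 and 7.26) and spi1b (7.07 and 7.24) lay within the tag control range. So did ptprc (6.92 and 7.45) and marco (6.80 and 7.50). The means of cxcr4b (6.29 and 7.50) lay below that range in controls and within it after the lesion. Of 11 Müller glia markers 4 rose, with fabp7a, vim and gfap ahead, and 3 fell, cahz most (median 0.026), with mean levels of 10.95 to 11.06 and 11.30 to 11.37. The remaining rise, apoeb (0.41), is also counted among the microglia and leukocyte markers. Of 7 pigment epithelium markers 4 rose, led by tspan36, pmelb and dct, and none fell (median 0.58), with mean levels of 9.24 to 9.30 and 10.23 to 10.41. Of 11 vascular, pericyte and fibroblast markers dcn rose and efnb2a fell (median 0.028), and the list's mean levels overlapped, at 7.05 to 7.25 and 7.05 to 7.15. Most of these markers had means within the range of the tag controls or below it, so little can be read from that overlap. Of 7 red blood cell markers hbba2, nt5c2l1 and alas2 were called lower (median -0.27), with mean levels of 7.36 to 7.50 and 7.16 to 7.26. The means of these called genes lay within the range of the tag controls in both groups (hbba2 6.82 and 6.49, nt5c2l1 7.06 and 6.76, alas2 7.34 and 7.04). The brightest marker of the list, hbaa1 (11.26 and 10.99), did not pass (adjusted p = 0.167). Without light lesion replicate 1, the list counts that moved beyond those of the IER and CCN genes were 9 rises and 2 falls among the other early genes, 14 rises among the microglia and leukocyte markers, 6 falls among the cone markers, no rise among the inner neuron markers (ptf1a, adjusted p = 0.0934) and 2 rises among the vascular, pericyte and fibroblast markers. In the CCN list ccn1 lost its call. The part of these shifts in the early gene values was not tested.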

How the data were processed

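Retinal total RNA (RNaqueous kit) was biotin-labelled with an in vitro transcription kit, per the labels. The deposited values are log2 summaries by RMA, 1 for each probe set on each array, according to the submitters' processing notes. Which RMA version and steps were used is not stated in those notes, and the base of the logarithm was inferred from their range (5.47 to 14.89). Of 15617 probe sets, 115 AFFX controls were set aside. The annotation gave 1 symbol for 10795 of the other 15502, several for 135 and none for 4572, and 10711 were found by gene identifier in the RefSeq gene table. A gene was read from its brightest probe set over the 8 arrays. Coordinates and sequences are not used here, since no build is named in the files.

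Light lesion was compared with control by limma 3.58.1 in R 4.3.3 (two-sided, no covariate, no filter), with Benjamini-Hochberg adjustment over 15502 probe sets and a threshold of 0.05. Differences between genes were tested by exact two-sided permutation over 70 assignments. Fold changes are light lesion minus control. The fits were tested on simulated data. The number of arrays limits precision.

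The genes and lists were chosen with earlier results of these data known. Named were all probe sets of the 10 symbols. For each list the rule took up to 3 called genes of largest change in the commoner direction and 1 in the other, or else the 2 of smallest p. It also took the 5 genes closest in profile to the called gene of largest change. Genes egr2a, ier5l, cnot7, cnot8, cnot9, cnot10, cnot11, map2k2a, rps6ka1, apoeb and hbaa1 lie outside this rule and were named after their values were seen. The same holds for elk4, crema, cremb, csrnp1a, gadd45ab, phlda2, csf1ra, spi1b, ptprc, marco and cxcr4b. Alternatives were a replicate block, quantile normalizing once more, centring arrays on their medians, dropping dim probe sets (at or under the 25th percentile in both groups), a trended and robust prior, array weights, the mean of a gene's probe sets, a threshold of 0.01 and leaving out each array. Reading wu:fj62d01 as ier2b, and the lists without light lesion replicate 1, were added after the data were seen. Replicate numbers are not stated to pair the samples. Same-numbered arrays had deviations from their group means correlated at -0.21, 0.28, -0.24 and 0.17 for replicates 1 to 4. Control replicates 2 and 4 were closest to the light lesion arrays of the same number. No light lesion array was closest to the control of its number, and these values cannot exclude pairing.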

Additional observations from a re-analysis of the deposited data

Results flagged for a closer look

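On light lesion replicate 1, nr4a1 stood far from the other light lesion arrays, at 7.87 against 7.11, 7.09 and 7.06. The gap to the nearest array was 0.945 of the whole range of the group, above the limit of 0.829 for 4 samples. This was the one such value among 26 groups of 4 arrays examined (13 probe sets in each condition), and chance alone is past this limit in about 1 group in 20.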

How the results depend on the processing

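The calls and directions of nr4a1, ier2a, btg1 and the second egr1 probe set held under every alternative fit run for them at a threshold of 0.05, with log2 fold changes of -1.28 to -1.01, 0.75 to 0.94, -0.56 to -0.44 and 0.23 to 0.34. At a threshold of 0.01, which the egr1 probe set and the genes ccn1 and ccn2a missed, 3 of the 9 genes and 3 of the 13 probe sets were called. Leaving out 1 array gave 3 to 5 genes called, 5 to 6 probe sets, and 5256 to 6239 calls over the array. The count fell to 3 genes without control replicate 1. For single genes, leaving out 1 array gave ranges of -0.79 to -0.44 for ccn2a, 0.18 to 0.25 for ccn1, 0.21 to 0.43 for btg2, -0.36 to -0.10 for ier5, -0.088 to -0.046 for egr1 and -0.12 to -0.015 for egr2b. With the mean of all probe sets, ccn1 changed by 0.033 and lost its call, btg2 changed by 0.15 (adjusted p = 0.174), and egr1 turned to 0.12 (adjusted p = 0.102). The dim btg2 probe set gave -0.064 to 0.0059 over these omissions, the latter without control replicate 3. With a replicate block, ccn1 stayed at 0.21 but did not pass (adjusted p = 0.0685), no other call of a gene changed, and 5638 probe sets were called over the array.

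Pair differences under the replicate block were -0.84 (btg1 minus btg2), 0.81 (ccn1 minus ccn2a) and 1.02 (egr1 minus nr4a1), each with p = 0.125, the smallest that 4 exact sign flips allow. With the mean of probe sets, ccn1 minus ccn2a was 0.63 (exact p = 0.0571) and egr1 minus egr2b turned to 0.17. Without any one of control replicates 1 to 4, ccn1 minus ccn2a and egr1 minus nr4a1 had exact p = 0.0571, while btg1 minus btg2 kept 0.0286. The groups stayed apart in these differences, and the p of 0.0571 arose since the two-sided test also counted an assignment of opposite sign. Leaving out 1 array gave 0.68 to 0.96 for ccn1 minus ccn2a, 0.92 to 1.21 for egr1 minus nr4a1 and -0.061 to 0.058 for egr1 minus egr2b, with positive values of 0.058 without control replicate 1, 0.0018 without control replicate 2 and 0.0051 without light lesion replicate 1. For losses not set by fewer arrays the cause was not tested. Values within or below the range of the tag controls, whose top lies above every array median, limit what can be read from the following genes. They are egr1, egr2b, most of ccn1, nr4a1 after the lesion, and egr4, nab1a, nr4a2b, sav1, cnot7, ptf1a, hbba2, nt5c2l1 and alas2. Also within or below this range were ccn2b, ccn4b, csrnp1a, gadd45ab, phlda2, crema, cremb and elk4. The same limit holds for csf1ra, spi1b, ptprc, marco and cxcr4b and for most of the vascular, pericyte and fibroblast markers. Nothing is read from the differences of egr1 from egr2b and nr4a1, and the size of ccn1 minus ccn2a is uncertain. Without light lesion replicate 1 the lists were recomputed as an alternative chosen after seeing the data. Of the 47 called list genes that the rule named, 46 kept their call, the exception being ptf1a.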

Other observations

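Control arrays also differed from one another in a shared way. Control replicate 1 was the highest control for 5 of the 9 genes (nr4a1, ier2a, ier5, btg2 and ccn2a), against 33.5% of all genes. The share was 41.4% among all genes called lower and 41.9% among all called higher. Control replicate 3 was the lowest for 5 of the 9 (egr1, nr4a1, ier2a, ier5 and ccn2a), against 33.2% of all genes. Here the share was 44.6% among all genes called lower and 38.1% among all called higher, so the pattern is not particular to the 9 genes. The named genes overlap with those that were highest on light lesion replicate 1, and the controls had a range of 0.36 for nr4a1, 0.33 for ccn2a, 0.19 for ier2a, 0.15 for ier5 and 0.12 for btg2. Control replicate 3 also had the highest mean of the tag controls, 7.18 against 6.78 to 6.97 on the other 7 arrays, and the lowest array weight, 0.501 against 0.512 for light lesion replicate 1. The part of these in its values was not tested.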
